A study of Mus musculus with 6 samples.

Results

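The genes described here make hemoglobin and the membrane of the red blood cell: the globins, the enzymes of heme synthesis, the carriers of iron, the factors that drive red cell formation and the proteins of the red cell membrane and its skeleton. They were chosen by name as a list of 35 genes, and 33 of them had a probe that passed the background filter (the scanner software calls it well above background in 3 or more of 6 arrays), out of 21800 genes tested. No probe could be matched to Hbb-b1 or Ahsp. The samples were hearts taken at embryonic day 9.5 from Arid3b-null embryos (3 pools) and from wild-type embryos (3 pools), with 4 embryos in each pool. The dissected piece was the heart tube together with the pharyngeal tissue under it (mesoderm and endoderm). The sources used here give neither the strain nor the kind of Arid3b mutation. The RNA was labelled with Cy3 and hybridised to single-colour Agilent arrays.

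At this stage the circulating blood consists mostly of primitive red cells, which arise in the yolk sac and are still nucleated and full of globin RNA when they pass through the heart. They carry embryonic globins (zeta, encoded by Hba-x, and epsilon-y and beta-h1, encoded by Hbb-y and Hbb-bh1) beside adult alpha globin, while adult beta globin belongs mainly to the later, definitive red cells. Heme is made in 8 enzymatic steps that begin and end in the mitochondrion. Developing red cells start the pathway mainly with Alas2, whereas other cells use Alas1. In a heart, blood-borne RNA of this kind reports the red cells caught in the dissected tissue, and fewer red cells cannot be told apart from less RNA per red cell.

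The promoters of 3 globin genes, of the red cell heme enzyme Alas2 and of Cpox, the heme enzyme that rose, are shown so that their elements can be compared. Sequences are from RefSeq (GRCm38.p6), run from 250 bases before to 50 bases after the gene's start and are written 5′ to 3′ on the gene's strand. Capitals mark any match on either strand to 4 short motifs. The first, AGATAA, is one form of the core that GATA factors bind. The second, CCACCC, is bound by factors such as Klf1. The others are the CCAAT box, searched as those letters, and the box near the start written TATAAA.
Hba-x, chr11:32276350-32276649, plus strand: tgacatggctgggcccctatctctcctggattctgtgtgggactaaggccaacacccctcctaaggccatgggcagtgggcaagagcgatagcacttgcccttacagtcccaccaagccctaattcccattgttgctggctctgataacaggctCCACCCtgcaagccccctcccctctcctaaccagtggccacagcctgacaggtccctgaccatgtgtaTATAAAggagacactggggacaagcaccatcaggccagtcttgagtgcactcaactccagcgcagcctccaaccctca
Hba-a1, chr11:32283422-32283721, plus strand: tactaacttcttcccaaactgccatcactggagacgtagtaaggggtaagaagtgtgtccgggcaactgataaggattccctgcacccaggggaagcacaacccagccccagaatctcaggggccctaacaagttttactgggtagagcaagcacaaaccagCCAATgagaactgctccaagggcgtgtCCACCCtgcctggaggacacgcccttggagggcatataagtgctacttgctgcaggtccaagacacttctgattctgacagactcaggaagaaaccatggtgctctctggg
Hbb-y, chr7:103853158-103853457, minus strand: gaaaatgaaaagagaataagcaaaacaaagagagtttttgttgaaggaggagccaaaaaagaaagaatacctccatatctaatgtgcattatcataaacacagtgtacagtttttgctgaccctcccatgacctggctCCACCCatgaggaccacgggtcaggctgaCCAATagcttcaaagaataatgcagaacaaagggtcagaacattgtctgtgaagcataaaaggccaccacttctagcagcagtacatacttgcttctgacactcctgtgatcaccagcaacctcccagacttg
Alas2, chrX:150547167-150547466, plus strand: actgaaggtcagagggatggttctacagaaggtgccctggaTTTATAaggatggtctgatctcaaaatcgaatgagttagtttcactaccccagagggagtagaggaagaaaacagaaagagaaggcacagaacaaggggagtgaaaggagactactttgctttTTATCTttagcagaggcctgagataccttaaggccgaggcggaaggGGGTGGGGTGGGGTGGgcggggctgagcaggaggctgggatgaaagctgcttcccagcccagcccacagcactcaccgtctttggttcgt
Cpox, chr16:58669958-58670257, plus strand: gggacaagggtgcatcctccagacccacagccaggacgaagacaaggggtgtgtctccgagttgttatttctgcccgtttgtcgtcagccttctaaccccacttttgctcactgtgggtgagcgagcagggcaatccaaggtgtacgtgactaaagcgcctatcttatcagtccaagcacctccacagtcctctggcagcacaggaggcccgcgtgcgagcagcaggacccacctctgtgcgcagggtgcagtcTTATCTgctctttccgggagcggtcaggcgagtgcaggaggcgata
The 5 windows are not equal in the exact matches they hold. Variants of these elements were not searched, such as the unmarked tgataa in Hba-x and Hba-a1. A window without a match may therefore still hold the element. Hba-x had CCACCC at -96 and TATAAA at -28, counted from the start site to the leftmost base of the match. Hba-a1 and Hbb-y had both CCACCC (at -61 and -112) and CCAAT (at -88 and -83). In Alas2 the reverse complement of CCACCC occurred 3 times in a row with 1 base shared between neighbours (at -40, -35 and -30), beside a reversed AGATAA at -86 and a reversed TATAAA at -209. Cpox held a reversed AGATAA at 5. The Hba-a2 window is not printed because it is the Hba-a1 window moved by 3 bases: all 297 bases that the windows share are identical. Of the 25 listed genes with a promoter in the table, 8 (32.0%) held AGATAA, against 11.2% of 32851 promoters, 13 (52.0%) held CCACCC, against 31.5%, 13 held CCAAT, against 37.4%, and 5 of the 25 held TATAAA, against 13.6%. Some genes have 2 windows, which raises their chance of a match, and a match to these letters is not evidence of binding.

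All levels below are log2 signals minus the 75th percentile of the array, so that a value of 0 is the level of a fairly bright probe, and each difference is null minus wild type. Arid3b, the targeted gene, read 1.08, 0.52 and 0.45 in null pools 1, 2 and 3, against 2.91, 3.4 and 3.69 in wild-type pools 1, 2 and 3. Arid3b fell by 2.65 (SE 0.26, limma adjusted p = 0.00194) and by 1.83, 2.88 and 3.24 within slides 1, 2 and 3. The sources used here do not say whether that probe lies in a deleted part of the gene. Between 27136 and 29149 spots were well above background on the null arrays and between 29139 and 31039 on the wild-type arrays, of 43020. Markers of heart muscle were bright in every pool: the 10 cardiomyocyte genes measured, among them Actc1, Myl4 and Myh7, had a summed log2 level of 10.63 to 10.98 in null and 10.63 to 10.91 in wild-type pools, with 0 called by limma and 0 at an unadjusted p under 0.05. Each slide held the null and the wild-type pool of the same number, with the 2 genotypes in fixed places, so place on the slide and genotype cannot be told apart. Nothing in the labels says that the 3 pools of a group came from separate litters.

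Few of the red cell genes passed the test, in both directions. Hba-a2 and Cpox rose, 2 of the 33 measured, while 6.64% of all genes tested rose at the same threshold. Alas1 and Bpgm fell, also 2 of 33, where 3.81% of all genes fell. The threshold was an adjusted p of 0.05 from limma (Benjamini-Hochberg, taken over the 21800 genes). These shares lie near the background. Of the 33 differences, 25 were positive and 8 negative, where 11467 of all 21800 were positive. The median of the 33 was 0.35 against 0.03 over all genes. Gypc and Tspan33 turned negative with arrays scaled to their medians. The null and wild-type pools did not overlap for 14 of the 33 genes, and for 32.9% of all genes. Without adjustment, 15 of the 33 were higher in null pools with a p under 0.05, where 15.1% of all genes were, and 2 were lower, where 11.8% were. With the slide as a replicate block, 0 of the 33 passed in either direction, where 2.47% of all genes rose and 0.931% fell. Likewise 0 passed without null pool 2, where 2.72% of all genes rose and 1.42% fell. Without wild-type pool 2 the count was also 0, where 2.72% rose and 1.11% fell.

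The pools numbered 2 stood farthest apart. Null pool 2 was the highest of the null pools for 25 of the 33 genes, as it was for 27.5% of all genes, and wild-type pool 2 the lowest of the wild-type pools for 22, as it was for 31.8% of all genes. The median difference of the 33 genes was 0.27 within slide 1, 1.02 within slide 2 and 0.02 within slide 3, while that of all genes was -0.11, 0.09 and 0.13. Within slides 1, 2 and 3 the null pool was the higher one for 22, 27 and 18 of the 33 genes. Over all 21800 genes it was the higher one for 9387, 12210 and 12628. With both pools numbered 2 left out, a choice made after the values were seen, the median was 0.26 and 0 of the 33 were called, where 0.528% of all genes rose and 0.055% fell.

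**Figure D1:**
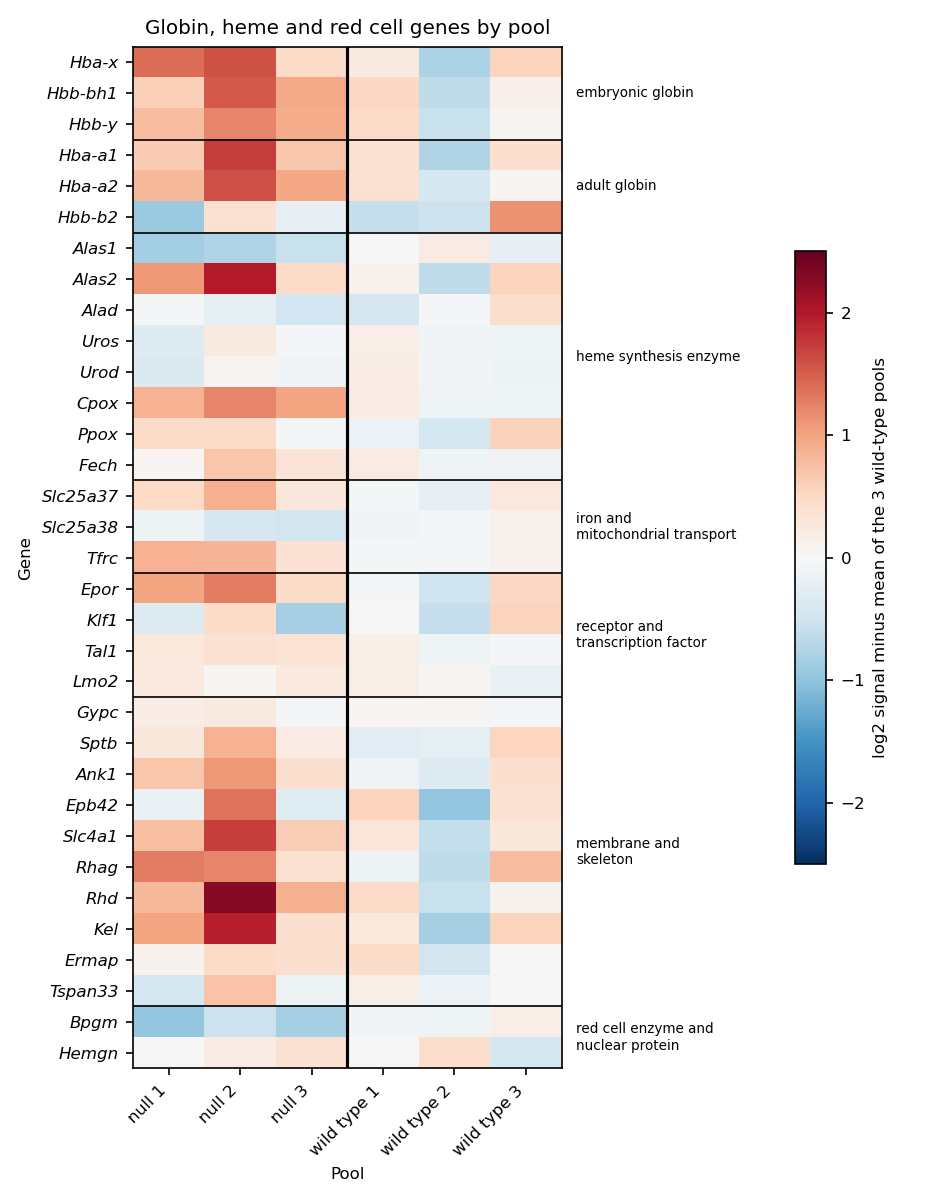
Heat map of the 33 measured genes (rows, grouped by role) in the 6 pools (columns, null left of wild type). Colour gives the log2 signal minus the mean of the 3 wild-type pools. Null pool 2 is the reddest null column (highest for 25 of 33 genes), wild-type pool 2 is the bluest wild-type column (lowest for 22 of 33), and Alas1 and Bpgm are lower in all 3 null pools.

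Among the embryonic globins, Hbb-y had the least spread. Hbb-y read 8.28, 8.73 and 8.44 in null pools 1, 2 and 3, against 7.99, 6.96 and 7.57 in wild-type pools 1, 2 and 3. The groups did not overlap, the mean was 8.48 ± 0.23 in null and 7.51 ± 0.52 in wild-type pools (SD, n = 3 each), and the difference of 0.98 (SE 0.28, limma adjusted p = 0.0674) did not pass. Its second probe read 8.2, 9.03 and 8.35 in null pools, against 7.91, 6.55 and 7.63 in wild-type pools.
Hbb-bh1 had 7.56, 8.49 and 7.91 in null pools and 7.48, 6.33 and 7.08 in wild-type pools. The lowest null pool and the highest wild-type pool, both numbered 1 and on 1 slide, lay 0.09 apart, and the difference was 1.02 (SE 0.35, limma adjusted p = 0.108). Hba-x had 7.25, 7.46 and 6.31 in null pools and 6.08, 5.06 and 6.42 in wild-type pools. Here null pool 3 lay under wild-type pool 3 and the groups overlapped, with a difference of 1.15 (SE 0.42, limma adjusted p = 0.13). Within slides 1, 2 and 3 the embryonic globins had mean differences of 0.51, 2.11 and 0.53. None of the 3 passed the limma test, and all 3 had an unadjusted p under 0.05 (0.00877 for Hbb-y, 0.0198 for Hbb-bh1 and 0.0269 for Hba-x). Over all genes, 15.1% were higher in null pools at that unadjusted threshold. Hbb-y passed with a trended and robust prior (limma adjusted p = 0.0432) and without wild-type pool 1 (0.038).

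Of the 3 adult globin genes measured, the alpha globin gene Hba-a2 rose. Hba-a2 read 8.61, 9.41 and 8.77 in null pools 1, 2 and 3, against 8.19, 7.37 and 7.84 in wild-type pools. The groups did not overlap, and Hba-a2 rose 2.19-fold (log2 1.13, SE 0.29, limma adjusted p = 0.0486), with 0.42, 2.04 and 0.93 within slides 1, 2 and 3. The call held without wild-type pool 1 (limma adjusted p = 0.0464) and ended without each of the other 5 pools (from 0.0513 without null pool 1 to 0.151 without wild-type pool 2). The call also ended with quantile normalization, at a difference of 0.64 (limma adjusted p = 0.158), with normexp background correction, at 0.79 (0.134), with each array scaled to its median, at 0.99 (0.0519), with the slide as a replicate block (0.133) and with dim probes kept (0.108).
Hba-a1 had 6.65, 7.74 and 6.7 in null pools and 6.38, 5.27 and 6.43 in wild-type pools, a difference of 1.01 (SE 0.41, limma adjusted p = 0.164). Within slides 1 and 3 the null pool was higher by 0.27, and within slide 2 by 2.48. The 2 alpha genes are near-identical copies, and whether a probe separates them is not known here, so their values are not independent.

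Hbb-b2, an adult beta globin gene, read 0.66, 1.97 and 1.39 in null pools 1, 2 and 3, against 1.01, 1.07 and 2.71 in wild-type pools. Wild-type pool 3 was the highest of all 6, and the difference was -0.25 (95% interval -1.45 to 0.95, limma adjusted p = 0.803), with 0.09 without null pool 1 and 0.3 without wild-type pool 3. A probe of Hbb-bt, another adult beta globin gene that is not in the list and was added after the values were seen, had the same highest pool, with 1.64, 3.19 and 2.27 in null and 1.56, 2.33 and 3.26 in wild-type pools. Its difference was -0.02 (95% interval -1.21 to 1.17). Mouse strains carry either the Hbb-b1 and Hbb-b2 or the Hbb-bs and Hbb-bt pair of adult beta genes, all closely alike, so these 2 probes may read the same RNA.
The mean difference of the embryonic globins was 1.05 and that of the 3 adult globins 0.63, a difference of 0.42. Without Hbb-b2 the adult mean was 1.07 and the difference -0.02, so the difference came from that 1 gene. Within slides 1, 2 and 3 the difference over all adult globins was 0.4, 0.3 and 0.57, and 0.17, -0.15 and -0.07 for adult alpha alone. It was not tested. Before scaling, the processed signal of Hba-a2 reached 54.6% of the scanner's saturation value in null pool 2, against 16.1% in wild-type pool 2. It was 35.6% against 27.2% on slide 1 and 29% against 33.5% on slide 3. Hbb-y (23.1% against 27.8%) and Hbb-bh1 (16% against 19.9%) were also lower in null pool 3 before scaling. The log2 75th percentile was 9.02 for null pool 3 and 10.16 for wild-type pool 3, so their higher null values on slide 3 appear only after scaling. No spot of the 33 genes was flagged as saturated.

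**Figure D2:**
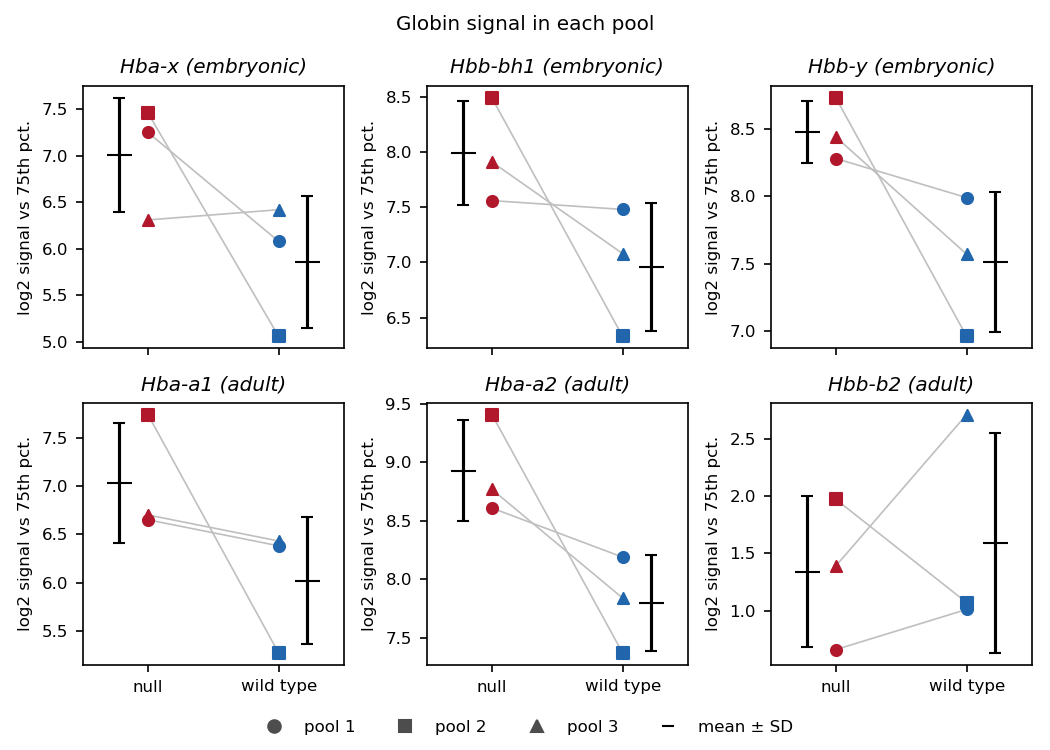
Log2 signal relative to the array's 75th percentile (y axis, own range per panel) of 6 globin genes in null (red, left) and wild-type (blue, right) pools. Symbols give the pool number, grey lines join pools on the same slide, and the black bars are mean ± SD of 3 pools. The squares (pools numbered 2) stand farthest apart in all panels but Hbb-b2, where wild-type pool 3 is the highest at 2.71.

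Of the 8 heme enzymes measured, Cpox rose, Alas1 fell and 6 did not pass. Alas2 and Alas1 are isoforms of the first enzyme. Alas2, the red cell form, read 2.14, 3.05 and 1.53 in null pools 1, 2 and 3, against 1.14, 0.43 and 1.61 in wild-type pools. Null pool 3 lay just under wild-type pool 3, and the difference of 1.18 (SE 0.43, limma adjusted p = 0.132) did not pass. Alas1, the form of all other cells, read 1.67, 1.76 and 1.97 in null pools, against 2.51, 2.72 and 2.32 in wild-type pools. Every null pool lay below every wild-type pool, and Alas1 fell by 0.71 on the log2 scale (SE 0.18, limma adjusted p = 0.0437). Its dimmer second probe had a difference of -0.27. The call ended without any 1 of the 6 pools (limma adjusted p from 0.0627 to 0.145), with the mean of both probes (0.128), with dim probes kept (0.112), in the authors' table (0.0591) and with the replicate block (0.2).

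Cpox, which makes protoporphyrinogen from coproporphyrinogen in the mitochondrion, was the member with the smallest p. Cpox read 1.94, 2.3 and 2.06 in null pools 1, 2 and 3, against 1.26, 0.97 and 0.97 in wild-type pools. It rose 2.04-fold (log2 1.03, SE 0.17, limma adjusted p = 0.0129), and by 0.68, 1.33 and 1.09 within slides 1, 2 and 3, so the gap was not confined to the pools numbered 2. The call ended with the slide as a replicate block (limma adjusted p = 0.0784), without null pool 2 (0.059) and without wild-type pool 2 (0.0628), at differences of 0.93 and 0.98 for the last 2.
The other 5 enzymes beside the Alas isoforms did not pass. Alad, which makes porphobilinogen, and Uros and Urod, which close and trim the porphyrin ring, had a difference of -0.25 (95% interval -0.83 to 0.33), -0.05 (-0.49 to 0.4) and -0.12 (-0.55 to 0.3). Ppox, which follows Cpox, had a difference of 0.3 (-0.38 to 0.99), and Fech, which inserts the iron, one of 0.35 (-0.13 to 0.84). The intervals of these 5 enzymes allow differences of up to about 1 log2 unit.

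Of the 3 carriers that supply iron and glycine, 0 passed the limma test. Without adjustment, 2 of the 3 were higher in null pools with a p under 0.05, where 15.1% of all genes were. Slc25a37 (mitoferrin), which brings iron into the mitochondrion, had 2.87, 3.27 and 2.66 in null pools, against 2.33, 2.17 and 2.64 in wild-type pools. The groups touched without overlap, 2.66 in null pool 3 beside 2.64 in wild-type pool 3, and the difference was 0.55 (limma adjusted p = 0.151). Its dimmer probe gave 1.05, and the mean of both probes passed at 0.8 (limma adjusted p = 0.0389).
Slc25a38, which imports glycine for the first step, had 1.69, 1.4 and 1.37 in null pools, against 1.75, 1.8 and 1.92 in wild-type pools, a difference of -0.34 (limma adjusted p = 0.233). Tfrc, the transferrin receptor of dividing cells and developing red cells, had 1.58, 1.56 and 1.07 in null pools, against 0.66, 0.67 and 0.81 in wild-type pools. All null pools lay above all wild-type pools, as they did for the other 2 Tfrc probes, which had a difference of 1.1 and 0.85. The brightest probe, spotted 10 times, had a difference of 0.69 (SE 0.19, limma adjusted p = 0.0606) and the mean of the 3 probes one of 0.88, which passed (limma adjusted p = 0.0143). The brightest probe also passed with normexp background correction (0.0196), a trended and robust prior (0.0338), the background filter applied to all 6 arrays (0.0473) and without null pool 3 (0.0491).

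Among the receptor and the transcription factors 0 of 4 passed the limma test. Without adjustment, 15.1% of all genes were higher in null pools with a p under 0.05, and so was 1 of these 4. That was Epor, the erythropoietin receptor, with 1.34, 1.64 and 0.82 in null pools, against 0.34, -0.13 and 0.87 in wild-type pools and a difference of 0.9 (SE 0.31, limma adjusted p = 0.112). Klf1, the factor that activates adult beta globin and many red cell genes, had -1.29, -0.5 and -1.79 in null pools, against -0.96, -1.53 and -0.4 in wild-type pools. Wild-type pool 3 was the highest and null pool 3 the lowest, the order reversed between slides 2 (1.02) and 3 (-1.39), and the difference was -0.23 (95% interval -1.15 to 0.68), with 0.07 without null pool 3 and 0.05 without wild-type pool 3. Tal1 and Lmo2, partners in a complex that red cells share with blood progenitors and endothelium, had a difference of 0.33 (-0.02 to 0.68) and 0.17 (-0.21 to 0.55).

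All 10 membrane and skeleton genes had a positive difference (8 of 10 with each array scaled to its median, where Gypc had -0.01 and Tspan33 -0.08). Over all genes, 11467 of 21800 were positive. By limma 0 of the 10 passed, and 5 were higher with an unadjusted p under 0.05, where 15.1% of all genes were. Within slides 1, 2 and 3 the null pool was the higher one for 7, 10 and 5 of the 10. Slc4a1 (band 3), the anion exchanger that anchors the skeleton, read 2.17, 3.13 and 2.02 in null pools, against 1.72, 0.82 and 1.69 in wild-type pools. The groups did not overlap, and the difference was 1.03 (SE 0.36, limma adjusted p = 0.12). Rhd, a Rhesus blood group protein, had -1.22, 0.24 and -1.15 in null pools, against -1.57, -2.59 and -1.96 in wild-type pools, a difference of 1.33 (SE 0.43, limma adjusted p = 0.0982). That difference was the largest among the 33 genes, and it was 0.36, 2.83 and 0.8 within slides 1, 2 and 3.
Kel, the Kell blood group protein, had a difference of 1.11 (limma adjusted p = 0.183), Rhag, the Rhesus-associated glycoprotein, one of 0.95 (0.176), and Ank1, the ankyrin that ties band 3 to spectrin, one of 0.73 (0.118). Sptb (beta spectrin), Ermap, Epb42 (protein 4.2), Gypc (glycophorin C) and Tspan33 ranged from 0.05 for Tspan33 to 0.46 for Sptb. Epb42 had -0.23 without null pool 2 and -0.18 without wild-type pool 2, and Tspan33 -0.27 and -0.02. The median of the 10 was 0.4, 1.63 and -0.06 within slides 1, 2 and 3.

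Bpgm is the enzyme that makes 2,3-bisphosphoglycerate, which lowers the oxygen affinity of adult hemoglobin. It read -0.26, 0.18 and -0.12 in null pools, against 0.64, 0.61 and 0.88 in wild-type pools. All null pools lay below all wild-type pools, and Bpgm fell by 0.78 (SE 0.18, limma adjusted p = 0.0367), with -0.9, -0.43 and -1.01 within slides 1, 2 and 3. The call ended without any 1 of the 6 pools (limma adjusted p from 0.0616 to 0.112), with dim probes kept (0.0962) and with the slide as a replicate block (0.161). Hemgn, a nuclear protein of blood-forming cells, had 3.41, 3.61 and 3.79 in null pools, against 3.4, 3.83 and 2.96 in wild-type pools, a difference of 0.21 (-0.36 to 0.78).

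**Figure D3:**
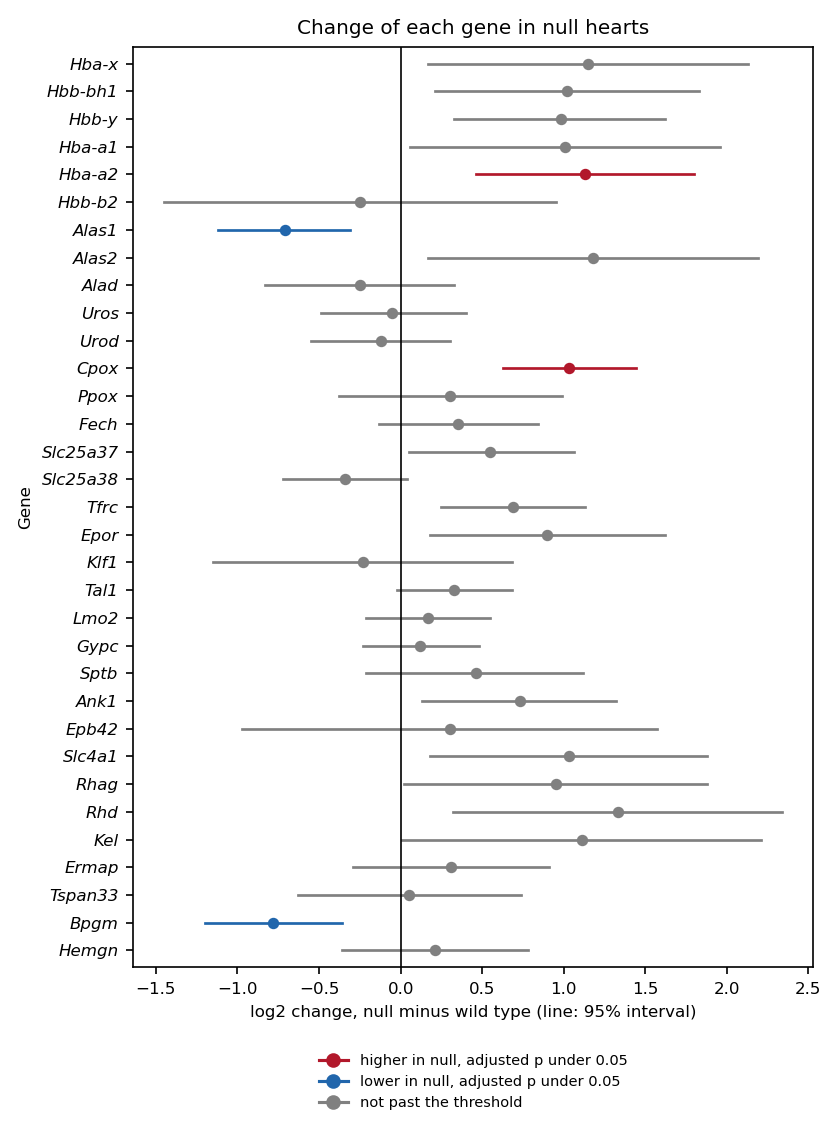
Log2 difference, null minus wild type, of the 33 measured genes (points) with 95% intervals from limma (lines), grouped from top to bottom by role. Red marks genes called higher (Hba-a2 and Cpox), blue genes called lower (Alas1 and Bpgm), and grey genes that did not pass.

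A second list of 48 red cell genes held other factors, membrane proteins and genes of heme and iron handling. Of the 47 measured, 5 rose, where 6.64% of all genes did, and 2 fell, where 3.81% did, with a median of 0.09 against 0.03 over all genes. The count that fell lies near the background. The transcription factors Gfi1b, Gata1 and Nfe2, which red cells share with megakaryocytes, rose by 1.6 (SE 0.26, limma adjusted p = 0.0121), 1.42 (SE 0.27, 0.0202) and 1.32 (SE 0.27, 0.026). Slc2a1, a glucose transporter of many cells, rose by 1.1 (0.0167), and Hmox1, which breaks heme down, by 1.25 (0.0233). The factor Myb, which marks definitive progenitors, fell by 1.39 (SE 0.21, limma adjusted p = 0.00859), with -4.02, -4.38 and -3.96 in null pools, against -2.76, -2.43 and -3 in wild-type pools. The water channel Aqp1 fell by 0.74 (0.0372).
Of these 7 calls, those of Gfi1b and Myb held with the slide as a replicate block, and 0 of the 7 held without both pools numbered 2, when that of Arid3b ended too (limma adjusted p = 0.0722). With no filter on dim probes, Gata1 (0.0523), Nfe2 (0.065), Aqp1 (0.0988) and Hmox1 (0.0605) lost their calls, and with the mean of a gene's probes Hmox1 had a difference of 0.81 (0.156). Without wild-type pool 2, Gfi1b, Gata1, Nfe2, Hmox1 and Aqp1 lost theirs (limma adjusted p from 0.0602 to 0.13), and without null pool 2 so did Gata1, Nfe2, Aqp1, Slc2a1 and Hmox1 (0.0532 to 0.138). Without null pool 3, Aqp1 (0.104) and Slc2a1 (0.0515) ended, without wild-type pool 1, Nfe2 (0.0586), Aqp1 (0.0682) and Hmox1 (0.0599), and without wild-type pool 3, Gata1 (0.0546), Aqp1 (0.086) and Hmox1 (0.0584).

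The marker lists of other cell types are read against the 6.64% of all genes that rose and the 3.81% that fell. All 14 measured megakaryocyte and platelet genes of 15 rose, and their summed log2 level was 5.88 to 6.48 in null pools, against 3.21 to 3.61 in wild-type pools. Pf4, Itgb3 and Vwf were the brightest of them. The median difference of the 14 was 1.99, 2.65 and 2.23 within slides 1, 2 and 3. The corresponding values of the embryonic globins were 0.29, 2.17 and 0.82. The summed level of all 33 red cell genes was 10.25 to 10.94 in null pools, against 9.01 to 9.89 in wild-type pools. That sum rests mostly on the globins, since the embryonic globins alone gave 9.35 to 9.91 in null and 7.9 to 8.97 in wild-type pools. The 8 heme enzymes gave 5.06 to 5.46 in null and 5.05 to 5.16 in wild-type pools.
Of 10 visceral endoderm and liver markers 8 were measured, with summed levels of 5.07 to 5.25 in null and 4.13 to 4.31 in wild-type pools. The brightest were Apoe, Rbp4 and Trf. Of the 8, 4 rose, Afp (log2 3.56), Rbp4 (2.37), Hnf4a (2.27) and Apoe (0.86), while Trf had a difference of -0.22. Alb and Apoa1 were not well above background on 3 arrays. Of 8 blood progenitor markers 7 were measured, with 3.05 to 3.21 in null and 2.72 to 2.98 in wild-type pools, led by Cd34, Kit and Gata2. Of the 7, 3 rose (Kit, Runx1 and Itga2b) and 1 fell (Myb). Itga2b is also among the megakaryocyte genes and Myb in the second red cell list, so these calls are not separate ones. The 9 endothelial markers gave 5.28 to 5.7 in null and 4.94 to 5.21 in wild-type pools, led by Egfl7, Kdr and Tie1. By limma 0 of the 9 rose or fell, and 0 had an unadjusted p under 0.05.
The 8 measured of 13 macrophage markers, led by Csf1r, Fcer1g and Tyrobp, gave 0.75 to 2.31 in null and 0.21 to 1.77 in wild-type pools, and 1 rose, Fcer1g, which platelets also carry. Of the other 5, Ptprc, Spi1, C1qa and Fcgr3 were not well above background on 3 arrays and Cd68 had no matched probe. Of 8 trophoblast markers 6 were measured, led by Gcm1, Hand1 and Prl3d1. The 1 that rose was Ascl2 (log2 3.62, limma adjusted p = 0.000291). Gcm1 had no value in null pool 1 and was compared over the other 5 pools. The 5 with a value on all arrays gave 1.57 to 4.92 in null and 1.2 to 2.14 in wild-type pools, the highest in null pool 3. There Prl3d1 read 4.78, against -3.2 and -0.97 in null pools 1 and 2, so that sum rests mostly on 1 gene. The part of these cells in the red cell gene values was not tested.

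**Figure D4:**
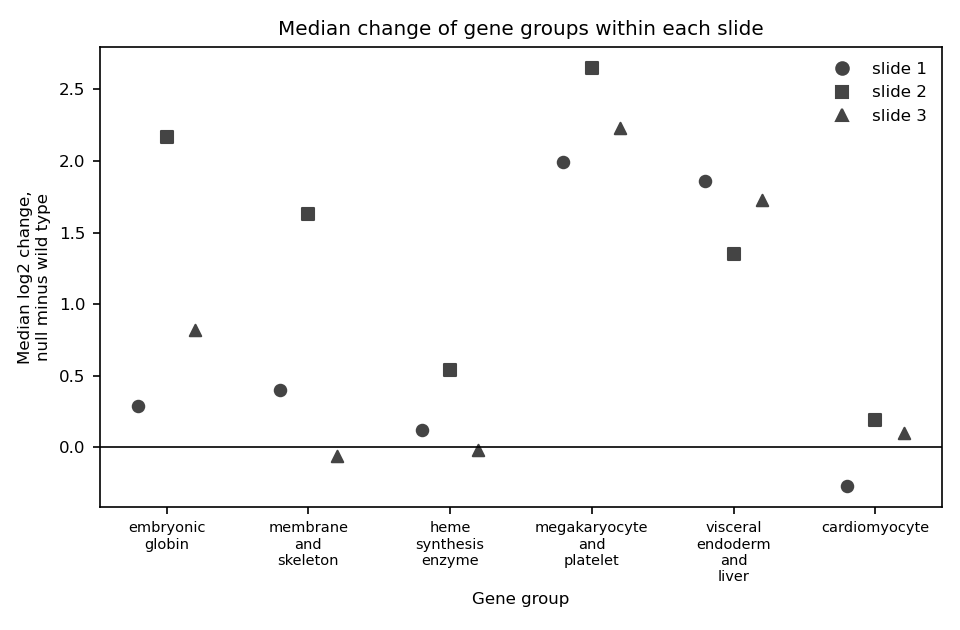
Median log2 difference, null minus wild type, of 6 gene groups (x axis) within slide 1 (circle), slide 2 (square) and slide 3 (triangle). The embryonic globins (0.29, 2.17 and 0.82) and the membrane genes (0.4, 1.63 and -0.06) spread widely between slides, the megakaryocyte genes (1.99, 2.65 and 2.23) less, and the cardiomyocyte genes lie near 0.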

How the data were processed

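Per the file headers, the deposited intensity values came from 1 single-colour scan per array with Agilent Feature Extraction 10.7.3.1 on design 026655, with background subtraction and spatial detrending by the software and no scaling between arrays. Per the file headers, the deposited 0 or 1 scores flag spots that are well above background, saturated or outlying. How the authors made their deposited log2 table is stated in no source used here, nor are its scaling and centring: its columns had medians of 6.76 to 6.77, correlated with the scanner values at r of 0.9994 or more across 24158 probes, and held 26 of the 33 genes.

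Log2 processed signal minus each array's 75th percentile was averaged over a probe's unflagged spots. Probes well above background on at least 3 of 6 arrays were kept (26848 of 39429), named through their RefSeq accession (table of GRCm38.p6, while the headers name mm9), and the brightest stood for the gene. Null and wild-type pools entered a two-sided limma fit (version 3.58.1, lmFit and eBayes, under R 4.3.3), and the procedure was tested on simulated data. Intervals are 95% from the same fit.

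Pools of the same number shared a slide, but their deviations from the group means correlated at -0.41, -0.09 and -0.41 across genes, so the fit had no block. All 35 genes were named, with the called genes of the second list and the 3 brightest of each marker list. Alternatives were quantile and median scaling, normexp (offset 50, on median spot signals), other filters, the mean of probes, the authors' table, a replicate block, a trended prior and single pools left out. Hbb-b1 and Ahsp were not analysed here. The members and lists were chosen with earlier results of these data known. With 3 arrays a group, their number limits the precision, and p-values measure only the spread between these pools.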

Additional observations from a re-analysis of the deposited data

How the results depend on the processing

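The median change of the 33 genes stayed positive under all alternatives run, between 0.22 with median scaling and 0.59 without wild-type pool 3. Scaling to the array median moved the median of all genes by -0.14 and dropping the filter on dim probes moved it by 0.14. The count of risen members, 2, was 1 with quantile normalization, median scaling, no filter on dim probes or the authors' table, 4 with the mean of a gene's probes or a trended and robust prior, and 0 to 3 with single pools left out. The count of fallen members, 2, was 1 with the mean of probes or the authors' table, 0 without the filter, and 0 with any 1 pool left out. With the slide as a replicate block both counts were 0, and with both pools numbered 2 left out both were 0. Numbers did not pair the pools (their correlations are below 0), and over all genes the block left 539 risen and 203 fallen of 1448 and 831. Counts over all genes were 592 and 310 leaving out null pool 2, 592 and 241 leaving out wild-type pool 2, 1174 and 579 without null pool 1, 763 and 344 without null pool 3, 1031 and 491 without wild-type pool 1, 774 and 321 without wild-type pool 3, 754 and 283 without the filter, and 1105 and 1399 with median scaling. Embryonic minus adult globins, 0.42, was 0.66 in the authors' table, which holds neither Hba-a2, Hbb-bh1 nor Hbb-y, -0.02 without Hbb-b2, and 0.26 to 0.6 with single pools left out. Hba-a2 changed by 0.64 with quantile normalization and 0.79 with normexp, and passed in neither (adjusted p = 0.158 and 0.134). No called member changed sign. The cause of these shifts was not tested.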
